A study of Sus scrofa with 6 samples.

Results

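The genes of lipoprotein and sterol handling described here are APOE, VLDLR, SCARB1, ABCA1, CYP27A1, LPL, FABP4 and CD36. They were compared between aortic valve leaflets of male and female pigs. Members were all probe sets of the Affymetrix Porcine Genome Array that the annotation of the array names for 1 of these 8 genes. This gave 12 probe sets for 7 genes, out of 23999 probe sets other than controls. No probe set was named for CD36, the scavenger receptor that takes up oxidized LDL and fatty acids, so it was not analysed here. APOE, VLDLR and LPL had 2 probe sets each, CYP27A1 had 3, and the other genes had 1.

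RNA was taken from 3 castrated male and 3 female pigs, 1 animal per array, all 5 months old and about 90 kg, within 5 h of death. The endothelium of each leaflet had been scraped off, so that the remaining tissue was expected to hold mostly valve interstitial cells (VICs). Apart from castration of the males, no treatment or allele was named for either group. Because the males were castrated, sex and castration cannot be told apart, and neither can a gene that is expressed less in each cell and one that is expressed in fewer cells of the leaflet. Values are log2 expression values made with robust multi-array averaging (RMA), so a difference of 1 is a 2-fold difference. They are not comparable in height between probe sets. Nothing in the labels gives a scan date or another batch.

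Lipoproteins carry cholesterol and triglycerides through the blood and into tissues. In a vessel wall or a valve, cells take them up through lipoprotein receptors and scavenger receptors, and return cholesterol through transporters such as ABCA1 to acceptors that carry APOE or APOA1. When a cell is short of sterol, the transcription factor SREBP2 is carried by its escort SCAP to the site of its activation and switches on the enzymes of sterol synthesis, whereas oxysterols made by enzymes such as CYP27A1 activate the liver X receptors and raise efflux. Lipid deposition is a known feature of calcific aortic valve disease.

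The sexes separated at XIST (4 probe sets) and at the Y-linked genes DDX3Y and EIF1AY on all 6 arrays, as labelled. Array medians lay between 7.33 and 7.38 on the log2 scale. The list mean of 8 valve interstitial and fibroblast markers was 12.38 to 12.63 on male arrays and 12.67 to 12.75 on female arrays. The 6 cardiomyocyte markers averaged 4.83 to 5.14 on male arrays and 5.05 to 5.09 on female arrays, and 5 of them were dim, that is, their mean lay under 5.55, the 25th percentile of all probe set means. Markers of the scraped endothelium were still measured, and their levels are given further below.

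In the limma comparison over all 23999 probe sets (male minus female), 0 of the 12 probe sets were called at an adjusted p under 0.05 and at least 2-fold, where 0.304% of all probe sets were called. At an unadjusted p under 0.05 there were 6 of the 12, among them every probe set of CYP27A1, against 16.9% of all probe sets. In 5 of the 12 the male and female values did not overlap, 2 with males higher and 3 with males lower, against 22.4% of all probe sets in either direction. The second comparison kept the 10% of probe sets with the highest coefficient of variation (CV), here a CV of 6.50% or more over the 6 log2 values. This CV is taken over both sexes and is higher where they differ, so the filter favours the difference that is then tested. Calls made with the filter alone carry this limit. The filtered comparison held 4 of the 12, and 2 of these 4 were called, 1 of APOE and 1 of CYP27A1, where 7.59% of all kept probe sets were called. Over the 12 probe sets the median log2 fold change was −0.21, against −0.01 over all probe sets. Means were higher in males for 4 of the 12 and lower for 8, which included every probe set of CYP27A1, VLDLR and LPL. Probe sets of 1 gene are not independent, so these counts and the median weigh a gene by its number of probe sets. With 3 animals per sex an exact permutation test of a single probe set, two-sided, cannot give a p below 0.1.

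**Figure D1:**
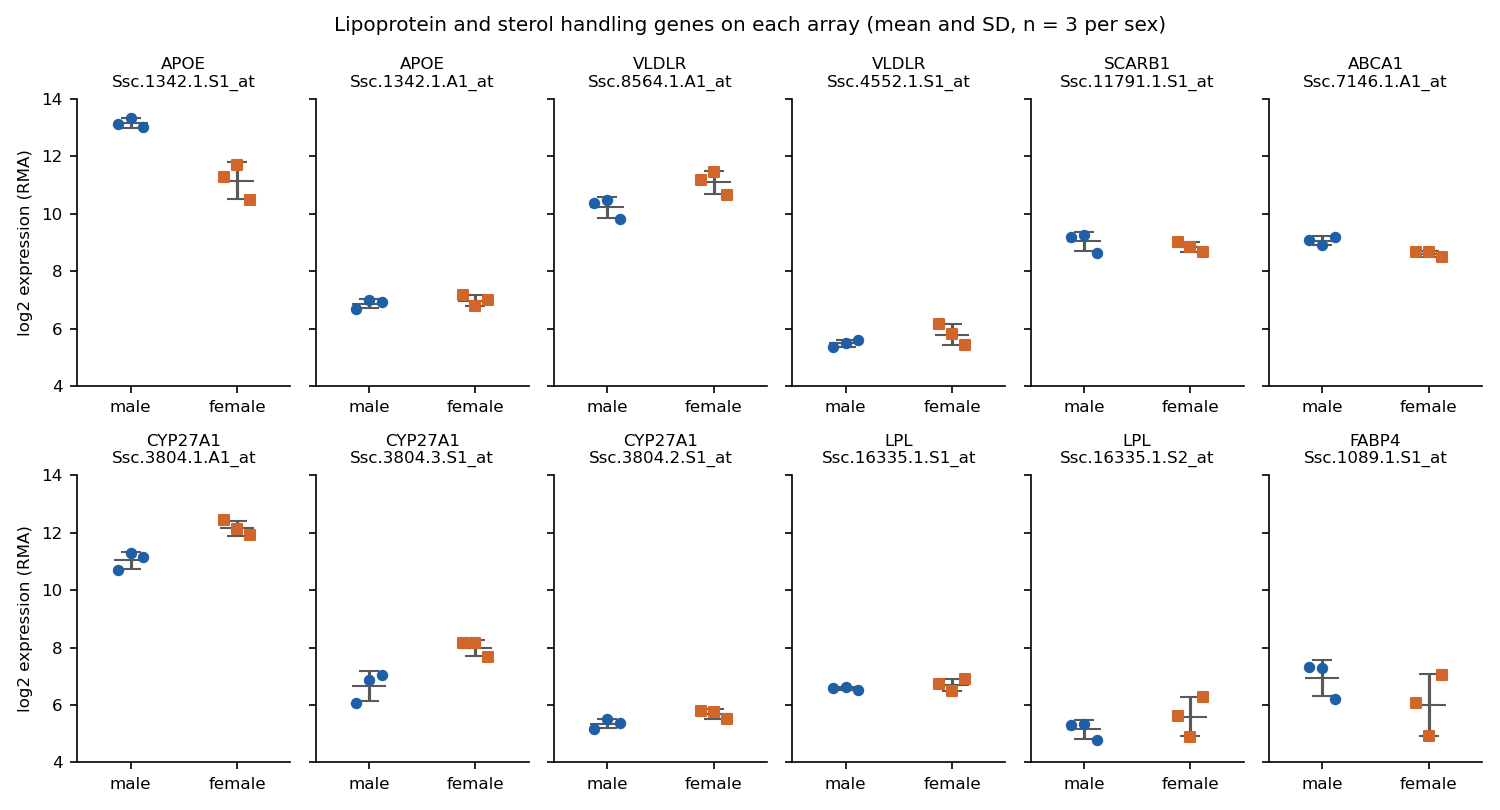
Log2 expression (RMA) of each probe set on the 3 male (circles, left) and 3 female (squares, right) arrays, with mean and SD. The APOE probe set Ssc.1342.1.S1_at lies between 13.01 and 13.33 in males and between 10.46 and 11.71 in females, and probe sets of 1 gene can differ in how far the sexes lie apart.

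Of the ligands, APOE was measured. It is the apolipoprotein through which remnant particles bind lipoprotein receptors, and macrophages secrete it with cholesterol. The probe set Ssc.1342.1.S1_at gave 13.14, 13.33 and 13.01 on the male arrays, against 11.28, 11.71 and 10.46 on the female arrays. All 3 males lay above all 3 females, and the females spread more widely (13.16 ± 0.16 in males and 11.15 ± 0.63 in females, SD, n = 3 each). The difference was 2.01 on the log2 scale (SE 0.30, 95% interval 1.31 to 2.71, over all probe sets), or 4.02-fold. APOE rose in males with the CV filter (SE 0.37, limma, adjusted p = 0.0113), and its adjusted p over all probe sets was 0.0542.

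A second probe set annotated to the same APOE transcript record, Ssc.1342.1.A1_at, did not show this difference. It gave 6.68, 7.01 and 6.92 in males, against 7.15, 6.77 and 6.98 in females. The sexes overlapped, and the difference was −0.10 with a 95% interval of −0.43 to 0.23 (limma, adjusted p = 0.766). This interval does not reach the difference at Ssc.1342.1.S1_at. Whether each probe set reads the APOE transcript, and which part or strand of it, was not analysed here.

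Genes near APOE in the pig RefSeq annotation (Sscrofa11.1, used for gene order alone) were looked up within 6 genes on either side. A probe set was named for CEACAM16, NECTIN2, APOC2, CLPTM1 and CLASRP. Their 8 probe sets differed by −0.09 to 0.33 on the log2 scale, male minus female, and 0 of them was called over all probe sets by limma (adjusted p of 0.537 or more). APOC2, the apolipoprotein that activates lipoprotein lipase and a neighbour of APOE in its gene cluster, was dim, at 3.96 in males and 3.82 in females.

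The 5 named genes whose centred values lay closest to those of Ssc.1342.1.S1_at over the 6 arrays were TPPP3, LIF, SLC9A3R2, HTR2B and RARRES1, at root mean square distances of 0.22 to 0.36 on the log2 scale. LIF is a cytokine of the interleukin 6 family, and HTR2B is a serotonin receptor known for its part in drug-induced valve disease. The measure takes in the difference between the sexes, and all 5 were higher in males, by 1.40 to 2.06. TPPP3, for example, gave 11.13, 10.71 and 10.73 in males, against 8.74, 9.55 and 8.30 in females. Female 2 was the highest of the females and female 3 the lowest, as in APOE, a likeness that the choice by distance favours.

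Of the receptors, VLDLR and SCARB1 were measured. VLDLR, the very low density lipoprotein receptor, binds particles that carry APOE and helps lipoprotein lipase deliver fatty acids. Its probe set Ssc.8564.1.A1_at gave 10.36, 10.49 and 9.81 in males, against 11.16, 11.46 and 10.65 in females. All males lay below all females, and male 3 and female 3 were each the lowest of their sex. The difference of −0.87 (SE 0.25, 95% interval −1.47 to −0.28, limma, adjusted p = 0.181) did not pass the test over all probe sets, and the CV of 5.54% kept this probe set out of the filtered comparison. The other VLDLR probe set, Ssc.4552.1.S1_at, gave 5.35, 5.51 and 5.60 in males, against 6.14, 5.80 and 5.42 in females. The sexes overlapped through female 3, with a difference of −0.30 (95% interval −0.74 to 0.14, adjusted p = 0.460).

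SCARB1, the scavenger receptor that takes up cholesteryl esters from HDL, gave 9.19, 9.27 and 8.65 in males, against 9.01, 8.83 and 8.65 in females. Male 3 lay at the level of the lowest female, and the other males above all females. The difference was 0.20 (95% interval −0.24 to 0.64, limma, adjusted p = 0.638).

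ABCA1, the transporter that loads cholesterol and phospholipid onto APOA1 and APOE, gave 9.10, 8.90 and 9.20 in males, against 8.67, 8.66 and 8.47 in females. The groups did not overlap, with a gap smaller than the range of the males. The difference was 0.46 (SE 0.12, 95% interval 0.18 to 0.75), a 1.38-fold higher level in males that did not pass the test (limma, adjusted p = 0.159).

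CYP27A1 is the mitochondrial enzyme that hydroxylates the side chain of cholesterol. Its product is an oxysterol that activates the liver X receptors and, in mice, modulates the estrogen receptor, and macrophages express it strongly. All 3 of its probe sets had lower means in males. Ssc.3804.3.S1_at gave 6.06, 6.88 and 7.03 in males, against 8.16, 8.14 and 7.68 in females. The groups did not overlap, and male 1 lay below the other males. The difference was −1.34 (SE 0.27, 95% interval −1.97 to −0.70, over all probe sets), so that females had a 2.52-fold higher level. CYP27A1 fell in males at this probe set with the CV filter (SE 0.36, limma, adjusted p = 0.0483), with an adjusted p of 0.108 over all probe sets. This call was close to the threshold: it was lost without male 1, male 2, female 1, female 2 or female 3 in turn (adjusted p up to 0.194) and held without male 3 (adjusted p = 0.0273).

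A second CYP27A1 probe set, Ssc.3804.1.A1_at, gave 10.71, 11.29 and 11.14 in males, against 12.43, 12.12 and 11.93 in females. Again all males lay below all females and male 1 was the lowest. The difference of −1.11 (SE 0.19, 95% interval −1.56 to −0.66) gave an adjusted p of 0.0751 over all probe sets by limma, and its CV of 5.68% kept it out of the filtered comparison. The third, Ssc.3804.2.S1_at, was dim. It gave 5.17, 5.51 and 5.37 in males, against 5.80, 5.76 and 5.50 in females, overlapping through male 2 and female 3, with a difference of −0.33 (adjusted p = 0.277).

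**Figure D2:**
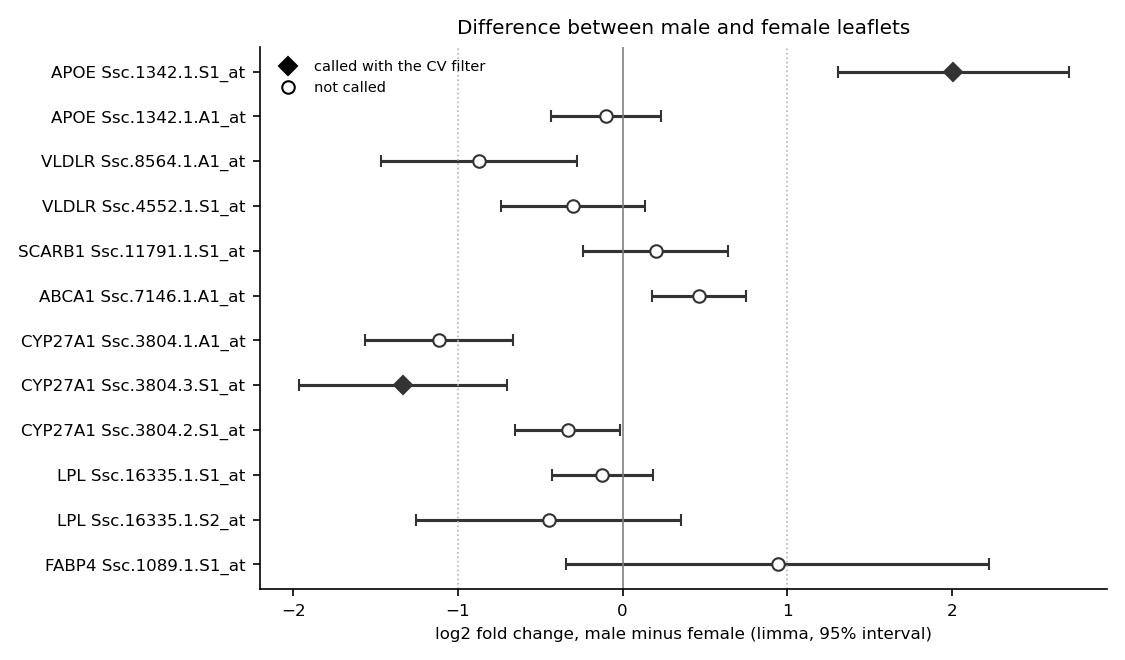
Log2 fold change, male minus female, of the 12 probe sets with 95% intervals from limma over all probe sets. Filled diamonds mark the 2 probe sets called with the CV filter, APOE at 2.01 and CYP27A1 at −1.34, and dotted lines mark 2-fold.

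Genes whose centred values were closest to those of CYP27A1 (Ssc.3804.3.S1_at) over the 6 arrays were NREP, RHBDD2, DIRAS3, ACSS3 and EGFR, at distances of 0.19 to 0.22 on the log2 scale. ACSS3 is a mitochondrial short-chain acyl-CoA synthetase, and EGFR is the epidermal growth factor receptor. All 5 had lower means in males, by 1.03 to 1.26. The distance between the CYP27A1 probe sets Ssc.3804.3.S1_at and Ssc.3804.1.A1_at was also small, at 0.2134.

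LPL and FABP4 act on fatty acids. LPL, lipoprotein lipase, releases fatty acids from triglycerides of circulating particles. Its probe set Ssc.16335.1.S1_at gave 6.59, 6.62 and 6.51 in males, against 6.73, 6.47 and 6.89 in females, and the males lay within the range of the females. The difference was −0.12 (95% interval −0.43 to 0.18, limma, adjusted p = 0.679). The dim probe set Ssc.16335.1.S2_at gave 5.32, 5.34 and 4.78 in males, against 5.63, 4.89 and 6.27 in females, with overlap and a difference of −0.45 (95% interval −1.25 to 0.35, adjusted p = 0.554).

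FABP4, the fatty acid binding protein of adipocytes, macrophages and capillary endothelium, varied widely between animals. It gave 7.34, 7.28 and 6.20 in males, against 6.06, 4.91 and 7.03 in females. Male 3 lay below female 3, and female 2 lay below all other animals. The difference was 0.94 with a 95% interval of −0.34 to 2.22, and did not pass the test over all probe sets (limma, adjusted p = 0.431) or with the CV filter (adjusted p = 0.236). It was 0.39 without female 2 and 1.46 without female 3.

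The wider pathway was taken from a list of 145 further genes in 8 roles, of which 95 had a named probe set, each represented by its brightest. Means were higher in males for 58 of these 95 and lower for 37, where 58.3% of all 6765 annotated genes were higher, and the median log2 fold change was 0.09, against 0.05 for all annotated genes. Over all probe sets 1 of the 95 genes was called, against a share of 0.304% for the whole array. With the CV filter 3 genes were called. Only genes whose brightest probe set passed the filter could be called there, so these 3 are not out of 95. Kept but not called were LRP8, LSR, OLR1, CES1, PPARG, PPARGC1A, ACAT2, FABP1, FABP5, FABP7 and SLC27A6. The share called among everything the filter kept was 7.59%. No probe set was named for ABCG1, a further cholesterol exporter.

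**Figure D3:**
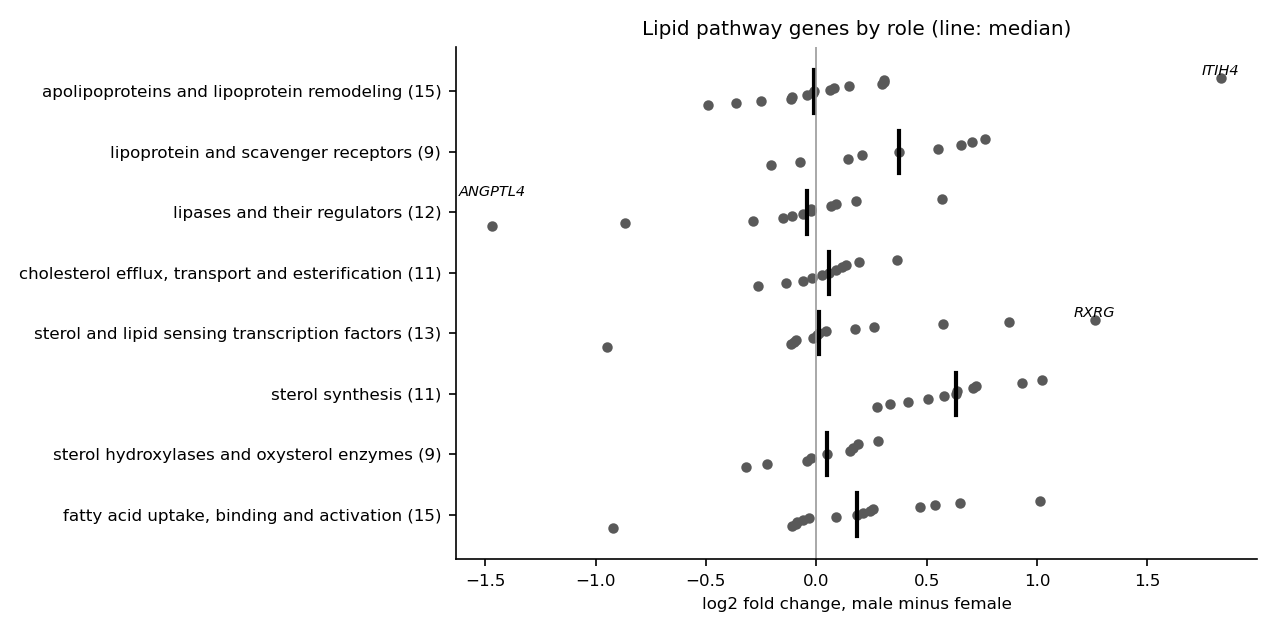
Log2 fold change, male minus female, of the 95 measured pathway genes by role (number of genes in parentheses, 1 point per gene, line at the median). The sterol synthesis genes lie between 0.28 and 1.02, all above 0, and the medians of the other roles lie between −0.04 and 0.37.

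RXRG, a retinoid X receptor that pairs with liver X receptors and PPARs, was the gene called in both comparisons. It gave 6.44, 7.03 and 6.91 in males, against 5.62, 5.52 and 5.46 in females, with no overlap. RXRG rose by 1.26 in males (limma, adjusted p = 0.0431 over all probe sets, SE 0.17, and 0.0421 with the CV filter, SE 0.32). The call over all probe sets was lost without male 2, female 1, female 2 or female 3 in turn (adjusted p from 0.0903 to 0.162), and with the CV filter it held on leaving out male 3 alone. NR1H3, the liver X receptor alpha, gave 8.31 ± 0.05 in males and 8.27 ± 0.11 in females (SD, n = 3 each), a difference of 0.04 (95% interval −0.20 to 0.29, adjusted p = 0.871). Of the 13 transcription factors and their escorts, 8 had a higher mean in males.

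ANGPTL4, a secreted inhibitor of lipoprotein lipase that is induced by PPARs and hypoxia, gave 6.68, 7.07 and 6.36 in males, against 8.22, 8.75 and 7.54 in females. All males lay below all females. ANGPTL4 fell by 1.47 in males with the CV filter (SE 0.38, limma, adjusted p = 0.0458), and its adjusted p over all probe sets was 0.119 (SE 0.32). A second ANGPTL4 probe set differed by −1.17 (adjusted p = 0.0702 with the CV filter). Without male 1, male 2, male 3, female 1 or female 2 in turn, the adjusted p with the CV filter was 0.0548 to 0.112, and without female 3 it was 0.0386. Among the 12 lipases and regulators, males had the higher mean in 4, and 1 was called.

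ITIH4, an acute phase plasma protein listed with lipoprotein remodeling although it is not an apolipoprotein, rose by 1.83 in males with the CV filter (limma, adjusted p = 0.0369). It gave 9.64, 9.79 and 9.69 in males, against 8.70, 8.08 and 6.84 in females, so that the females spread far more than the males. Its adjusted p over all probe sets was 0.132, and with the CV filter the call was lost without male 1, male 2 or female 3 (adjusted p = 0.0844, 0.0633 and 0.102). ITIH4 was the only call among the 15 genes of its role, of which 7 were higher in males and 7 were dim, with a median of −0.01.

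In the remaining roles no gene was called at its brightest probe set. Receptors had 7 of 9 genes with a higher mean in males, and MYLIP, a ubiquitin ligase that degrades lipoprotein receptors, differed most (0.77, limma, adjusted p = 0.185). NPC1, which exports cholesterol from lysosomes, differed most in the efflux and transport role at the brightest probe set of each gene (0.37, adjusted p = 0.366), where 7 of 11 genes were higher in males. CAV1, the coat protein of caveolae and named after its values were seen, differed by 0.19 at its brightest probe set and by 0.83 and 0.52 at its other probe sets (adjusted p = 0.216 and 0.275). AMACR, a racemase of bile acid synthesis, differed most among the 9 hydroxylases and oxysterol enzymes other than CYP27A1, dim genes aside (0.28, adjusted p = 0.267). FABP5, a fatty acid binding protein close to FABP4, led the fatty acid role. It gave 11.30, 11.60 and 10.31 in males, against 10.07, 10.54 and 9.56 in females, a difference of 1.01 (adjusted p = 0.244) in which male 3 lay below female 2.

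The sterol synthesis enzymes were the role whose genes all had a higher mean in males. This was 11 of 11 genes, where 58.3% of annotated genes were higher. Their median log2 fold change was 0.63, and the differences ran from 0.28 to 1.02. At an unadjusted p under 0.05 there were 8 of the 11, where 11.0% of annotated genes reached this with males higher, and the sexes did not overlap in 6 of the 11, where 15.7% of annotated genes were so with males higher. None of the 11 was called, with adjusted p from 0.137 to 0.551 over all probe sets. These genes share the same 6 animals and are known to be switched on together, so they are not independent of each other, and the list as a whole was not tested.

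The whole role is described here because of its values, and its genes other than SQLE were chosen after these were seen. SQLE, squalene epoxidase, gave 11.51, 11.45 and 10.74 in males, against 9.90, 10.50 and 10.23 in females. The lowest male lay above the highest female, and the difference was 1.02 (95% interval 0.45 to 1.60, limma, adjusted p = 0.138). ACAT2, the cytosolic thiolase that makes acetoacetyl-CoA, gave 10.09, 9.78 and 9.13 in males, against 8.64, 9.11 and 8.45 in females, a difference of 0.93 (adjusted p = 0.182). FDFT1, squalene synthase, gave 11.41, 11.23 and 11.04 in males, against 10.71, 10.34 and 10.71 in females, a difference of 0.64 with a gap between the sexes (adjusted p = 0.137).

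HMGCS1 (0.71), MSMO1 (0.73), CYP51A1 (0.63), SC5D (0.58), FDPS (0.50), HSD17B7 (0.42), TM7SF2 (0.34) and NSDHL (0.28) made up the rest of the enzymes, each value being the difference on the log2 scale. A dim second probe set of MSMO1 went the other way, by −0.26. Male 3 was the lowest of the males in all 11 genes. SCAP, the escort of SREBP2, differed by 0.87 (adjusted p = 0.0954). SREBF2, the gene of SREBP2 itself, differed by 0.18 at its brightest probe set and by 0.98 at another, which averaged 7.39 in males and 6.41 in females (limma, adjusted p = 0.0431 over all probe sets and 0.0671 with the CV filter) and was under 2-fold. Its other probe sets differed by 0.06 and 0.01. INSIG1, the retention factor of SREBP2, differed by 0.01 at its brightest probe set and by 0.28 at a dim one. These 3 genes were likewise chosen after their values were seen.

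**Figure D4:**
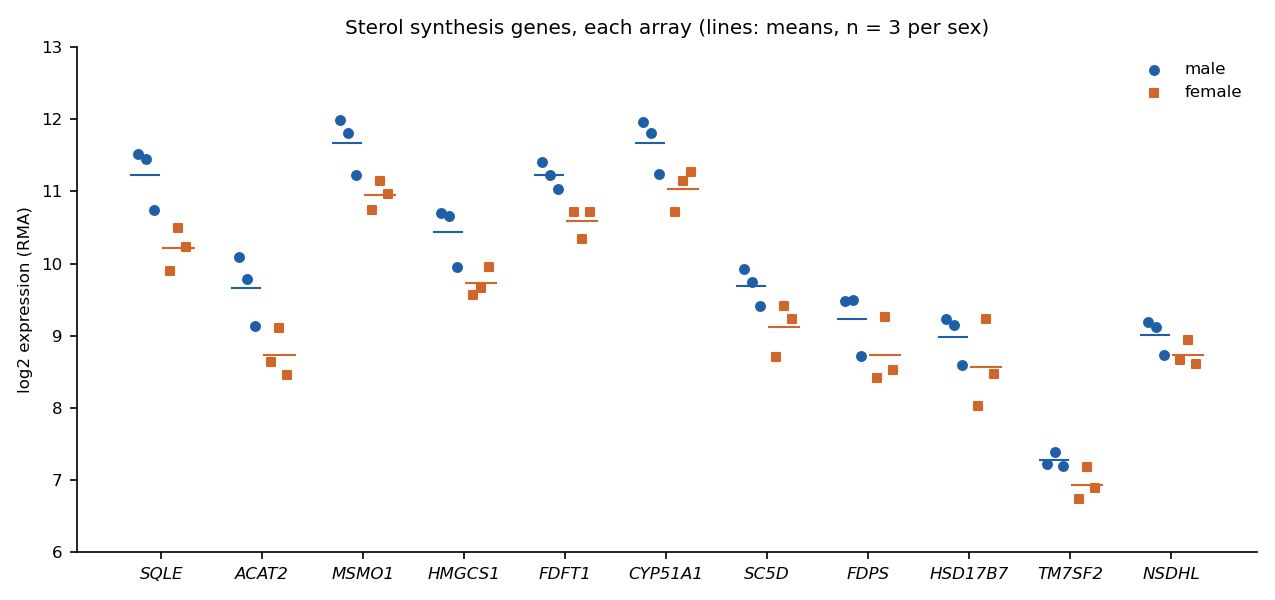
Log2 expression (RMA) of the 11 sterol synthesis genes on the 3 male (circles, left) and 3 female (squares, right) arrays of each gene, with lines at the means. Genes are ordered by their difference, from SQLE at 1.02 to NSDHL at 0.28, and male 3 is the lowest male throughout.

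Marker lists of other cells were measured on the same arrays. The list mean of the sterol synthesis genes was 10.25, 10.15 and 9.64 on the male arrays, against 9.17, 9.63 and 9.39 on the female arrays. The list mean of 12 endothelial markers was 10.16, 9.84 and 9.27 on the male arrays, against 8.81, 9.37 and 8.83 on the female arrays. In both lists male 1 was the highest array and female 1 the lowest, male 3 was the lowest male, and female 2 was the highest female. Endothelial markers were higher in males for 10 of 12 genes. The differences were 1.11 for PECAM1, 0.90 for CDH5 and 0.38 for VWF. ICAM2 (1.70, limma, adjusted p = 0.0260) and ESAM (1.59, adjusted p = 0.0395) rose with the CV filter. Another ESAM probe set differed by 1.56 (limma, adjusted p = 0.05004 with the CV filter), and a further one by −0.26. The part of endothelial cells in the differences of APOE, FABP4 and the sterol synthesis genes was not tested.

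Macrophages express APOE, ABCA1 and CYP27A1, and their markers overlapped between the sexes. The list mean of 12 macrophage markers was 10.13, 10.30 and 9.94 in males, against 10.28, 9.99 and 9.68 in females. Means were higher in males for 6 of 12 genes and lower for 6, and 0 were called by limma in either comparison. The 1 gene at an unadjusted p under 0.05 was TYROBP, higher in males by 0.42 (limma, adjusted p = 0.271). CD163 gave means of 12.02 in males and 12.09 in females at its brightest probe set. A second gave 8.95 in males and 9.81 in females, a difference of −0.86 (limma, adjusted p = 0.177). CD68 and CSF1R had no named probe set. The 8 adipocyte markers averaged 6.70 to 6.89 in males and 6.71 to 7.01 in females, 1 of 8 higher in males. ADIPOQ was dim, LEP differed by −0.02, and PLIN1 had no named probe set. The valve interstitial and fibroblast markers had lower means in males for 7 of 8 genes, with a mean difference of −0.20 over the list. The part of cell composition in the differences of the lipid genes was not tested.

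**Figure D5:**
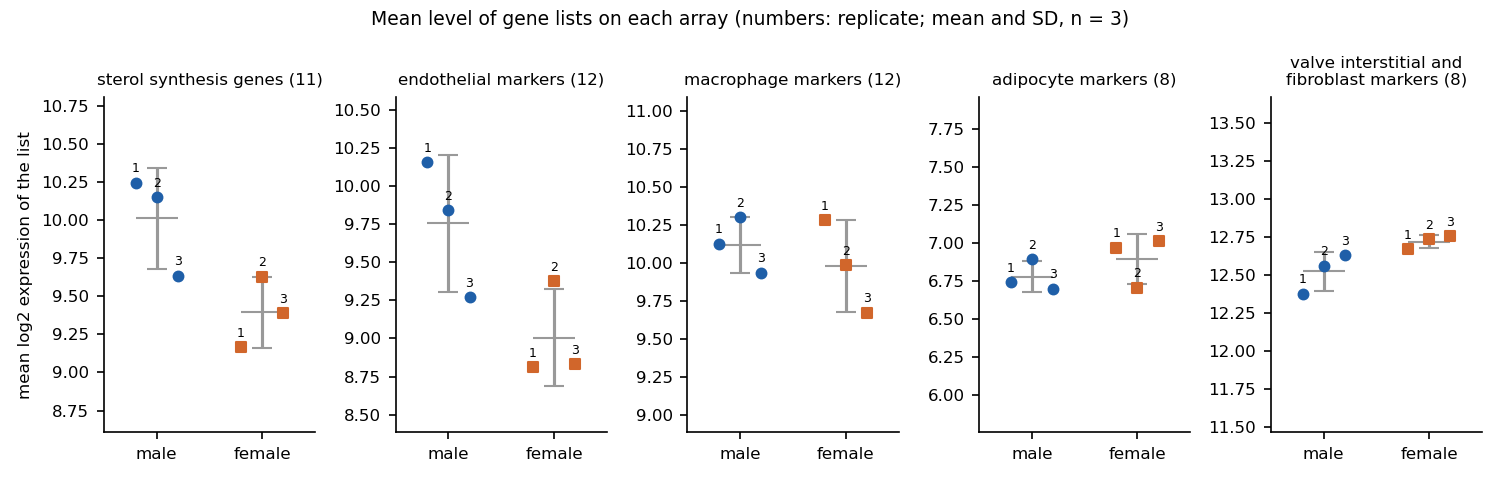
Mean log2 expression of gene lists on each array (number of genes in parentheses), male arrays (circles) left of female arrays (squares), with the replicate number beside each point and mean and SD per sex. Sterol synthesis genes and endothelial markers have their highest value on male 1 and their lowest on female 1, whereas the macrophage and adipocyte lists overlap between the sexes. Each panel spans the same number of log2 units.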

How the data were processed

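Total RNA of scraped leaflets (400 ng per sample) had been hybridized to 6 Affymetrix arrays, and the authors deposited log2 expression values made with RMA (R 2.12.0, per the labels), which corrects background, sets arrays to a common distribution and summarizes probes. Raw intensities were not used, and with 6 arrays their number sets the precision. The deposited log2 values were compared in limma 3.58.1 (lmFit, eBayes, R 4.3.3) over the 23999 probe sets that are not controls, and again over the 2412 probe sets of highest CV, with Benjamini-Hochberg adjustment in each, after tests on simulated data. Figures were drawn with matplotlib 3.10.9. Each array is 1 animal, so p-values set the difference between the sexes against the spread between animals. For each probe set limma moderates that spread with those of all probe sets in the fit.

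All probe sets of the members are named. Pathway genes are named where called or kept by the CV filter, and where the difference was the widest of a role (dim genes aside). ABCG1, NR1H3 and ANGPTL4 are also named. Markers are named where called or fixed by name, and TYROBP was named after its values were seen. Some listed genes are not reported here. The members and lists were chosen with earlier results of these data known. Alternatives were an intensity trend, median-centred arrays, renewed quantile normalization, no dim probe sets, other CV filters, no minimum fold, a replicate block and leaving out each animal.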

Additional observations from a re-analysis of the deposited data

How the results depend on the processing

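The direction of all 12 probe sets was kept under every alternative run. Over all probe sets, 0 of the 12 were called, against 1 (APOE) with an intensity trend, with median-centred arrays or with the replicate block, and 0 to 1 on leaving out each animal (APOE, adjusted p = 0.0499, without male 3). With the CV filter 2 were called, against 1 (APOE) with 5% of probe sets kept or an intensity trend and 1 to 2 on leaving out each animal. A wider filter called 3, with the CYP27A1 probe set Ssc.3804.1.A1_at added. APOE kept its call in all 11 alternatives with the CV filter, and its log2 fold change ran from 1.66 to 2.29 without 1 animal. Of the pathway genes 1 was called over all probe sets, against 3 with the replicate block (RXRG, ANGPTL4, FABP5) and 0 to 3 on leaving out each animal (RXRG, SCAP and SQLE without male 3). The median log2 fold change of the pathway genes was 0.089, 0.125 after renewed quantile normalization, and 0.088 to 0.145 on leaving out each animal. For the sterol synthesis genes, in alternatives chosen after seeing the data, all 11 genes stayed higher in males without each animal and under both scalings, with medians of 0.47 to 0.76. The replicate block rests on numbers alone, since deviations of same-numbered male and female arrays correlated at −0.10, 0.01 and 0.27. The cause of these changes was not tested. The 2-fold minimum leaves out smaller differences by construction, RMA compresses low signals, and no detection call was used, so a dim probe set without a difference does not show that the gene is unchanged.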
